A study of Mus musculus with 2 samples.

Results

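Lyn, Blk, Syk, Btk, Blnk, Plcg2, Bank1, Dapp1, Pik3cd and Pik3ap1 encode kinases, adaptor proteins and a phospholipase (Plcg2) that act just below the B cell receptor. They were chosen by name, 10 of the 31053 genes counted, and followed over myocardial B cells of neonatal and adult mice. B cells of C57BL6/J hearts were flow-sorted on 1 day and made into 1 droplet library per age (Chromium 3′ chemistry). The neonatal library held pooled male and female mice aged 2 weeks (15 days in its title), and the adult library held male mice aged 8 weeks. Hearts of 6 mice were pooled for each age, in 2 tubes of 3 hearts, so mice cannot be separated from one another, and age and library cannot be told apart. No mouse of either group carried a stated transgene or had a stated treatment.

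The B cell receptor is an immunoglobulin held by the chains Cd79a and Cd79b. When it is engaged, Src family kinases such as Lyn and Blk phosphorylate these chains, Syk docks on them, and Syk phosphorylates the adaptor Blnk, on which Btk and phospholipase C gamma 2 assemble. A separate arm runs through phosphoinositide 3-kinase, which adaptors such as Pik3ap1 recruit. B1 cells are innate-like B cells of the body cavities, known for weaker responses to receptor engagement than follicular B cells.

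A droplet was used when it had at least 2000 gene UMIs (unique molecular identifiers, each marking 1 captured mRNA), at most 10% UMIs of mt- genes and at least 1 Cd79a UMI. This left 2077 neonatal cells of 2507 droplets with at least 2000 UMIs, and 3611 adult cells of 4120. They held 16403180 and 34623240 UMIs, with medians of 6000 and 6131 UMIs per cell. Levels are the summed UMIs of a gene per 1000000 UMIs of the same cells (CPM). As the chemistry counts 3′ ends, levels were not divided by gene length. Intervals are exact 95% intervals that cover counting error only. Cells are not replicates, so no test was possible, and a difference is called past 1.5-fold (0.58 on the log2 scale) for genes with at least 100 UMIs over the compared groups. All 10 genes passed that minimum in the comparisons of ages and of the classes described below. Cd79a was present by the rule, and the B cell markers Cd79b, Ms4a1, Pax5 and Cd74, which the rule did not use, were present in both libraries. Macrophage markers summed to at most 111 CPM in any class of neonatal and 16.0 CPM in any class of adult cells, and Lyz2 gave most of the neonatal sum. The neutrophil genes S100a8 and S100a9 had no UMI in adult cells. Between the libraries, 110 barcodes held at least 500 UMIs in both, among them 61 neonatal and 45 adult cells.

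Positions are those of GENCODE M21 on GRCm38, the assembly of the mm10 build that the labels name. Lyn (ENSMUSG00000042228) lies on chromosome 4 from 3678115 to 3813122 and Pik3cd (ENSMUSG00000039936) on the same chromosome from 149649168 to 149702571. Blk (ENSMUSG00000014453) is on chromosome 14 from 63372836 to 63417037, and Syk (ENSMUSG00000021457) on chromosome 13 from 52583173 to 52648792. Btk (ENSMUSG00000031264) is X-linked, from 134542336 to 134583570. Blnk (ENSMUSG00000061132) and Pik3ap1 (ENSMUSG00000025017) share chromosome 19, from 40928927 to 40994535 and from 41272377 to 41385102. Bank1 (ENSMUSG00000037922) and Dapp1 (ENSMUSG00000028159) share chromosome 3, from 136053363 to 136326066 and from 137931007 to 137981545. Plcg2 (ENSMUSG00000034330) lies on chromosome 8 from 117498291 to 117635142.

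RefSeq promoter windows (GRCm38.p6) were at hand for 8 of the 10 genes, with 11 windows in all. Lyn and Blk had none. The 250 bases before the start are printed for Bank1 and Pik3ap1, the genes with higher adult than neonatal levels, and for Btk, which was lower in the adult library and lower in B1-marker cells of both ages. Capitals mark matches, on either strand, to the octamer ATTTGCAT, the PU box GAGGAA and the E-box CAGGTG. These are motifs bound by Oct, PU.1 and E2A proteins in B cells. No GENCODE exon lies in any of the windows shown. Bank1 is at chr3:136326067-136326316, Pik3ap1 at chr19:41385103-41385352 and Btk at chrX:134583141-134583390, each printed 5′ to 3′ on the minus strand. The windows of Bank1 and Pik3ap1 lie just outside the genes as positioned above. That of Btk precedes a RefSeq start inside the GENCODE gene, whose 5′ end is at 134583570.
Bank1: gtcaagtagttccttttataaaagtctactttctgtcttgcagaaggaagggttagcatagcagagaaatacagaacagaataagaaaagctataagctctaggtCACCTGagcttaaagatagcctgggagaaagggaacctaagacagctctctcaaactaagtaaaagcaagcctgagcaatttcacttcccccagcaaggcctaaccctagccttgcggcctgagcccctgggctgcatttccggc
Pik3ap1: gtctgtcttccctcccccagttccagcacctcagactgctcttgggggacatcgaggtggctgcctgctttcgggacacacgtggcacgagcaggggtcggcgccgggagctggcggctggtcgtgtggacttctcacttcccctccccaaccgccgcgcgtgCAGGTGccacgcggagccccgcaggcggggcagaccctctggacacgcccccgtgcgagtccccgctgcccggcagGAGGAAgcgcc
Btk: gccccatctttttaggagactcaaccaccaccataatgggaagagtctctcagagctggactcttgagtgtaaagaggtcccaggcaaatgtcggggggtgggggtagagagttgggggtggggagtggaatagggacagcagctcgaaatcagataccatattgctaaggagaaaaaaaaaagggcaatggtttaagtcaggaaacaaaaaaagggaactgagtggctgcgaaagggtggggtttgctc
The Bank1 window held an E-box 145 bases before the start, on the opposite strand and so printed as CACCTG. The Pik3ap1 window held an E-box 87 bases and a PU box 11 bases before the start, and no match overlapped another. The Btk window held none of the 3 motifs. Over the 11 windows, 8 held the E-box, against 17.3% of all 32536 distinct windows of this length, and 2 held the PU box, against 23.4%. The octamer was found in 1 window, that of Blnk, against 1.62% of all windows. GC content was 71.2% in the Pik3ap1 window, 46.4% in that of Bank1 and 49.6% in that of Btk, with a median of 52.4% over all windows. A match is a run of letters and was not tied to binding or to a level.

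Transcripts of all 10 genes were present at both ages, and the order of their levels was nearly the same. Bank1, a scaffold protein of B cells that binds Lyn, was the highest at 432 CPM (95% interval 422 to 442) in neonatal and 592 CPM (584 to 600) in adult cells. Syk followed at 379 and 245 CPM, Lyn at 306 and 208 CPM, and Blnk at 178 and 159 CPM. Pik3ap1, known as the B cell adaptor for phosphoinositide 3-kinase, was the lowest, at 16.7 CPM (14.8 to 18.8) in neonatal and 21.9 CPM (20.4 to 23.5) in adult cells. In the neonatal order the intervals of Blnk and Blk, of Btk and Dapp1, and of Dapp1 and Plcg2 overlapped. In the adult order only Btk and Dapp1 did, and Bank1 stood 2.42-fold above Syk, against 1.14-fold in the neonatal library. Summed, the 10 genes made up 1833 CPM of neonatal and 1596 CPM of adult UMIs.

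**Figure D1:**
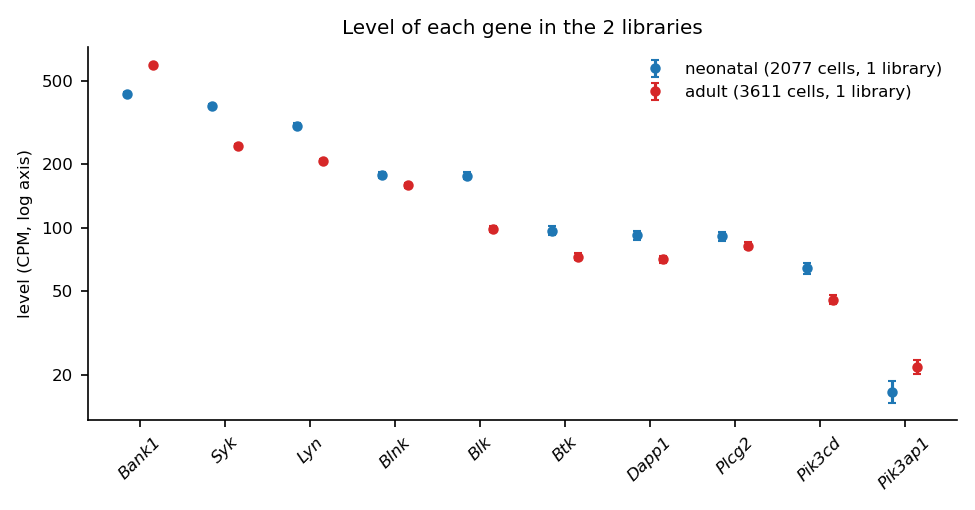
Level of each gene (CPM, log axis) over 2077 neonatal and 3611 adult cells, 1 library each, with exact 95% Poisson intervals that cover counting error only. Bank1 and Pik3ap1 are the genes whose adult point lies above the neonatal one, and the other 8 lie below.

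Among the receptor-proximal kinases, the levels were lower in the adult library. Blk, a Src family kinase largely restricted to B cells, had 177 CPM in neonatal and 98.4 CPM in adult cells, 1.80-fold lower in the adult library (log2 ratio -0.84, 95% interval -0.92 to -0.77). Syk, which relays the signal from the receptor chains, was 1.55-fold lower (log2 ratio -0.63, -0.68 to -0.58). Lyn, which both starts the signal and feeds inhibitory receptors, was 1.47-fold lower (log2 ratio -0.55, -0.61 to -0.50) and so short of 1.5-fold. Btk, the Tec family kinase that activates phospholipase C gamma 2, had 96.9 CPM and 73.0 CPM (log2 ratio -0.41, -0.50 to -0.32).

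Of the adaptors and lipid-signalling genes, 4 were lower and 2 higher in the adult library, and of all 9830 genes with at least 100 UMIs 65.4% were below 0. Blnk, the adaptor that Syk phosphorylates, had a log2 ratio of -0.16 (-0.23 to -0.10). Plcg2, the phospholipase itself, had 91.1 CPM in neonatal and 82.5 CPM in adult cells (log2 ratio -0.14, -0.23 to -0.05), close to the median of all genes. Pik3cd, the catalytic phosphoinositide 3-kinase subunit of leukocytes, had 64.4 and 45.7 CPM (log2 ratio -0.50, -0.61 to -0.38). Dapp1, an adaptor that binds phosphoinositide 3-kinase products, had 92.4 and 70.9 CPM (log2 ratio -0.38, -0.47 to -0.29). Bank1 was 1.37-fold higher in adult cells (log2 ratio 0.45, 0.41 to 0.49) and Pik3ap1 1.31-fold higher (log2 ratio 0.39, 0.19 to 0.59).

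Past 1.5-fold, 2 of the 10 genes (Blk and Syk) were lower in the adult library and 0 were higher. Of all 9830 genes, 11.0% were lower and 6.49% higher by as much. With a limit of 5% mt- UMIs, which left 60 neonatal and 156 adult cells, neither was past 1.5-fold, with log2 ratios of -0.052 for Blk and -0.54 for Syk. Lyn (-0.76), Pik3cd (-0.69) and Dapp1 (-0.59) were lower past 1.5-fold at that limit, and Bank1 was higher (0.61). At the 10% limit, the median log2 ratio of the 10 was -0.39, and that of all genes was -0.14. Relative to that median, Blk was at -0.71, Syk at -0.49, Lyn at -0.42, Bank1 at 0.59 and Pik3ap1 at 0.53, so that Blk alone was lower and Bank1 alone higher past 1.5-fold. The rest of the pathway was taken from a list of 67 other genes, of which 65 had enough UMIs. Their median was -0.16, with 7 past 1.5-fold higher and 4 lower. By role, 2 of 8 receptor and coreceptor genes were higher and 0 lower, 1 of 20 other kinases and adaptors was higher and 0 lower, 3 of 19 second messenger and downstream genes were higher and 2 lower, and 1 of 18 inhibitors was higher and 2 lower.

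**Figure D2:**
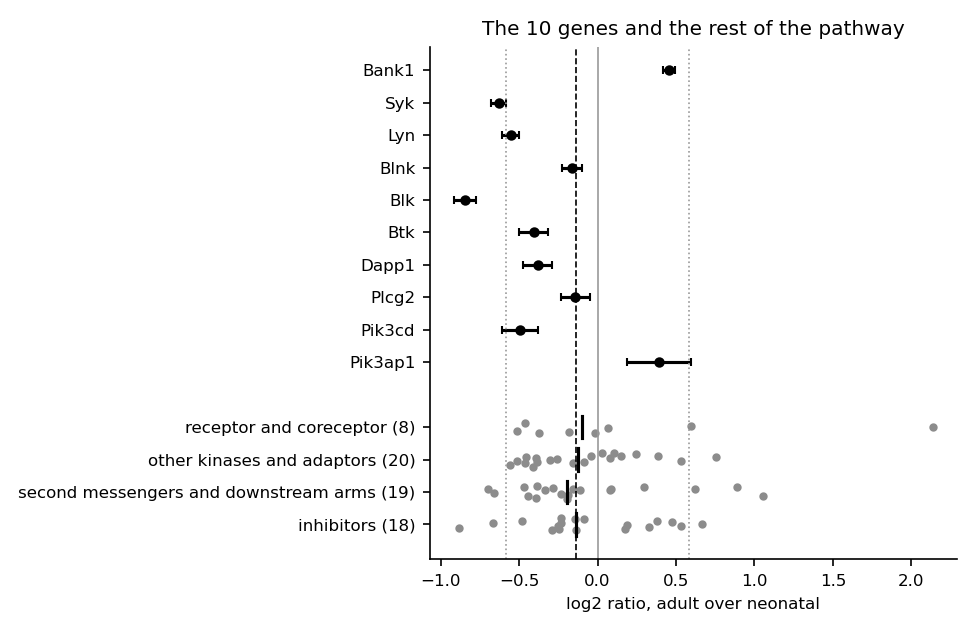
Log2 ratio of adult over neonatal CPM for the 10 genes (black, 95% counting intervals) and for 65 other pathway genes in 4 groups (grey points, bar at the median of the group, number of genes in parentheses). Dotted lines mark 1.5-fold and the dashed line the median of all genes at -0.14, and Blk lies farthest to the left of the 10 at -0.84.

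Of the other pathway genes that reached 20 CPM at either age, the highest adult levels relative to neonatal ones were of Cr2, a complement receptor of B cells (121 against 27.4 CPM, log2 ratio 2.14), and Rasgrp3, a Ras activator that responds to diacylglycerol (81.5 against 39.2 CPM, 1.06). Lax1, an inhibitory adaptor, had a ratio of 0.66, Itpkb, an inositol trisphosphate kinase, 0.62, and Ighd, the IgD heavy chain, 0.60. Prkcd, a protein kinase C that restrains autoreactive B cells, was lower in the adult library (71.0 against 115 CPM, log2 ratio -0.70). Dok3, an inhibitory adaptor, was at -0.67 and Nfatc3, a calcium-responsive transcription factor, at -0.66.

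To hold the depth per cell alike, the ages were also compared among cells of 2000 to 4000, of 4000 to 8000 and of over 8000 UMIs. Each of the 10 genes kept its direction in all 3 ranges. Blk had similar values, with log2 ratios of -0.93, -0.80 and -0.91. Syk had -0.74, -0.75 and -0.53, and Lyn -0.96, -0.70 and -0.43, so that the ratio of Lyn was nearer to 0 in the deepest cells. Bank1 went the other way, with 0.12 (-0.09 to 0.34), 0.31 and 0.60. Plcg2 was at -0.88, -0.26 and -0.01 (-0.14 to 0.11), so its adult and neonatal levels could not be told apart in the deepest cells. The neonatal library had only 124 cells in the lowest range, against 728 adult cells, and there the intervals of Btk, Bank1, Dapp1, Pik3cd and Pik3ap1 held 0. Pik3ap1 had only 7 neonatal and 57 adult UMIs in that range, short of the minimum of 100. The ranges also differed in the class of B1-marker cells that is described below. Over 8000 UMIs, 173 of 546 neonatal and 558 of 1394 adult cells were in that class, which held 177 and 580 cells at all depths. Depth and class were therefore not separated here, and the part of class in these ratios was not tested.

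The share of cells with a UMI gave the same directions once every cell was thinned to 2000 UMIs. A Bank1 UMI was present in 57.8% of neonatal and 65.6% of adult cells (exact 95% interval 64.0 to 67.2%). For Syk the shares were 52.4% and 38.1%, for Lyn 46.1% and 33.5%, and for Blk 28.4% and 17.2%. Pik3ap1 was seen in 3.47% of neonatal and 4.49% of adult cells (2.72 to 4.35% and 3.83 to 5.21%), intervals that overlap. With all UMIs counted, a Blk UMI was present in 62.1% and 48.4% of cells and a Bank1 UMI in 89.3% and 92.3%. Free RNA, estimated from droplets of 20 to 100 UMIs, would give each gene a share of under 1% of thinned cells, at most 0.79% for Blk in the neonatal library. Those near-empty droplets held more Blk than cells did, with 379 CPM (neonatal) and 169 CPM (adult). With this free RNA subtracted, the log2 ratio of Blk was -0.84, as without. At 2000 UMIs, neonatal cells held UMIs of a median of 3 and adult cells of 2 of the 10 genes, and 3.13% and 6.15% of cells held none.

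**Figure D3:**
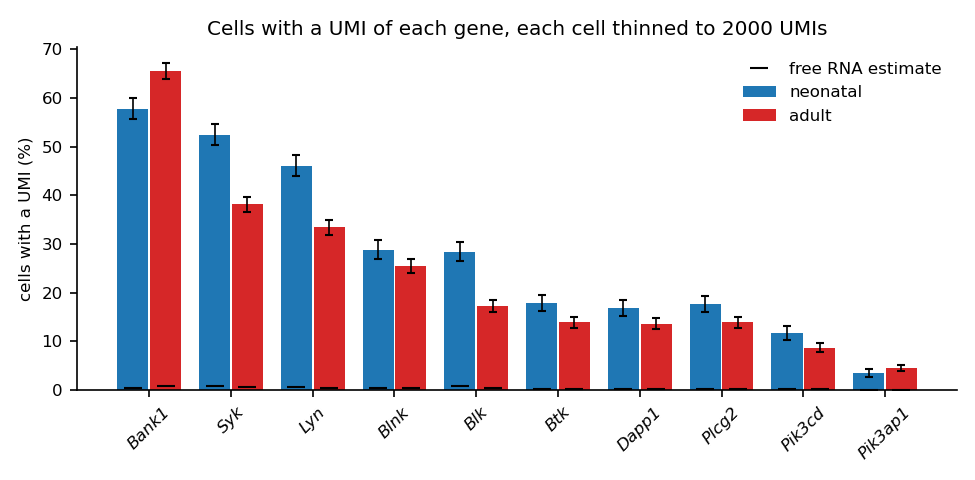
Percent of cells with at least 1 UMI of each gene after every cell was thinned to 2000 UMIs (bars from 0, exact 95% binomial intervals), with the share that free RNA would give as a short black line. Neonatal bars are higher for 8 genes, Bank1 and Pik3ap1 have higher adult bars, and the black lines stay under 1%.

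The background of the genes outside B cells was measured in droplets that met the depth and mt- limits but had no Cd79a UMI, 14 of the neonatal and 4 of the adult library. Of the neonatal ones, 4 carried at least 3 macrophage markers, and these held 17 Lyn UMIs and 14 Syk UMIs (439 and 362 CPM) but 0 Blk, 0 Blnk and 1 Bank1 UMI. The same 4 droplets held 4 Plcg2, 3 Btk and 3 Pik3cd UMIs (103, 77.5 and 77.5 CPM) and 1 UMI each of Dapp1 and Pik3ap1. Lyn and Syk are known to be used by myeloid cells as well, so their levels are not specific to B cells. The 3 neonatal droplets with T cell markers held no Lyn, Blk, Btk, Plcg2 or Bank1 UMI and 2 of Pik3cd. Among the 4 adult droplets, all with T cell markers, Pik3cd had 5 UMIs (179 CPM) and Lyn, Blk, Syk, Btk, Blnk, Plcg2 and Pik3ap1 had 0. Leaving out B cells with at least 2 UMIs of markers of macrophages, neutrophils, T cells or another cell type gave age ratios of -0.86 for Blk and -0.65 for Syk on the log2 scale.

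Cells with UMIs of at least 3 of Bhlhe41, Zbtb32, Ctla4, Cd9, S100a6 and Nid1 were called B1-marker cells. There were 177 of them in the neonatal library (8.52% of cells) and 580 in the adult library (16.1%). Markers of B1 cells that the rule did not use (Cd5, Spn, Itgam, Ahr and Cd300lf) summed to 203 CPM in the neonatal B1-marker cells against 38.9 CPM in the others, and to 124 against 40.5 CPM in the adult library. A class that needs 3 markers favours deep cells: neonatal and adult B1-marker cells had medians of 15881 and 16550 UMIs, against 5821.5 and 5150 in the other cells. Cells near the limit were many, with 122 neonatal and 306 adult cells at 2 markers and 63 and 201 at 3. Shared barcodes held 45 of the neonatal and 39 of the adult B1-marker cells, and ratios are also given below, or drawn, without them. They weighed more in UMIs. Without them the neonatal class held 1921713 of its 3554311 UMIs and the adult class 10126326 of its 12696060. Summed levels, marker levels and counts of genes past 1.5-fold between the classes include the shared barcodes.

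In the neonatal library 8 of the 10 genes had lower levels in B1-marker cells, where 61.3% of all 8126 genes were below 0. Syk had 298 CPM (280 to 316) there and 401 CPM (390 to 412) in the other cells, a log2 ratio of -0.43 (-0.53 to -0.33). Without the shared barcodes it was -0.56. Btk was at 74.3 against 103 CPM (log2 ratio -0.47, and -0.32 without shared barcodes), and Dapp1 at 72.9 against 97.8 CPM (-0.42, and -0.50 without). Bank1 had 355 against 453 CPM (log2 ratio -0.35), Lyn 267 against 317 CPM (-0.25) and Blnk 159 against 184 CPM (-0.20). Plcg2 had 89.8 against 91.4 CPM (-0.027, -0.21 to 0.15), a difference not detectable at this depth. Blk and Pik3cd were higher in B1-marker cells: Blk had 204 against 169 CPM (log2 ratio 0.27, 0.15 to 0.39) and Pik3cd 78.2 against 60.6 CPM (0.37, 0.16 to 0.57). Neither direction was seen in every setting. With at most 5% mt- UMIs (12 B1-marker cells with 302947 UMIs), Pik3cd was at -0.62 and Blk at -0.048. Pik3cd was at -0.27 when cells were thinned and the class was called again (28 cells with 56000 UMIs). UMIs of single genes are not given for these settings and may fall short of the minimum. These reversals are therefore not settled by the counts.

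Pik3ap1 showed the widest gap. It had 26 UMIs, or 7.32 CPM (4.78 to 10.7), in neonatal B1-marker cells and 248 UMIs, or 19.3 CPM (17.0 to 21.9), in the other neonatal cells, 2.64-fold lower (log2 ratio -1.40, -2.04 to -0.81). In the adult library it had 16.3 CPM (14.2 to 18.7) and 25.1 CPM (23.1 to 27.3), 1.54-fold lower (log2 ratio -0.62, -0.86 to -0.39). The intervals of the classes did not overlap within either library. Without the shared barcodes the log2 ratios were -1.63 and -0.72. The adult ratio was short of 1.5-fold with median-of-ratios scaling (-0.57) and with the class called at 2 markers (-0.49). It was also short of it in thinned cells (-0.48) and with at most 5% mt- UMIs (-0.24). So was the neonatal ratio at that mt- limit (-0.46). B1-marker cells then held 302947 neonatal and 428024 adult UMIs, so few of them were of Pik3ap1.

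In adult cells 8 of the other 9 genes had log2 ratios between -0.076 and 0.13. Syk had 244 against 245 CPM (log2 ratio -0.0034, -0.068 to 0.061), Dapp1 70.2 against 71.3 CPM (-0.023) and Bank1 572 against 603 CPM (-0.076, -0.12 to -0.034). Btk was at 63.9 against 78.3 CPM (log2 ratio -0.29, -0.42 to -0.17), so Btk, Bank1 and Pik3ap1 were lower in B1-marker cells of both libraries with intervals clear of 0. The adult ratio of Bank1 was, however, close to the median of all genes (-0.053). With cells thinned to 2000 UMIs and the class called again, 61 adult B1-marker cells with 122000 UMIs were left. Btk was then at -0.87, Dapp1 at -0.83 and Bank1 at -0.65, with UMIs of single genes not given. In that setting Blnk was at -0.50, Pik3cd at -0.47, Blk at -0.028 and Lyn at -0.0090, each above 0 without thinning. Plcg2 was at 0.25 and Syk at -0.083. Without thinning, Blk had 104 against 95.2 CPM (log2 ratio 0.13, 0.026 to 0.23) and was above 0 at both ages. Lyn had 215 against 204 CPM (0.073, 0.0038 to 0.14), and Blnk, Plcg2 and Pik3cd had ratios of 0.077, 0.048 and 0.072 with intervals that held 0.

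**Figure D4:**
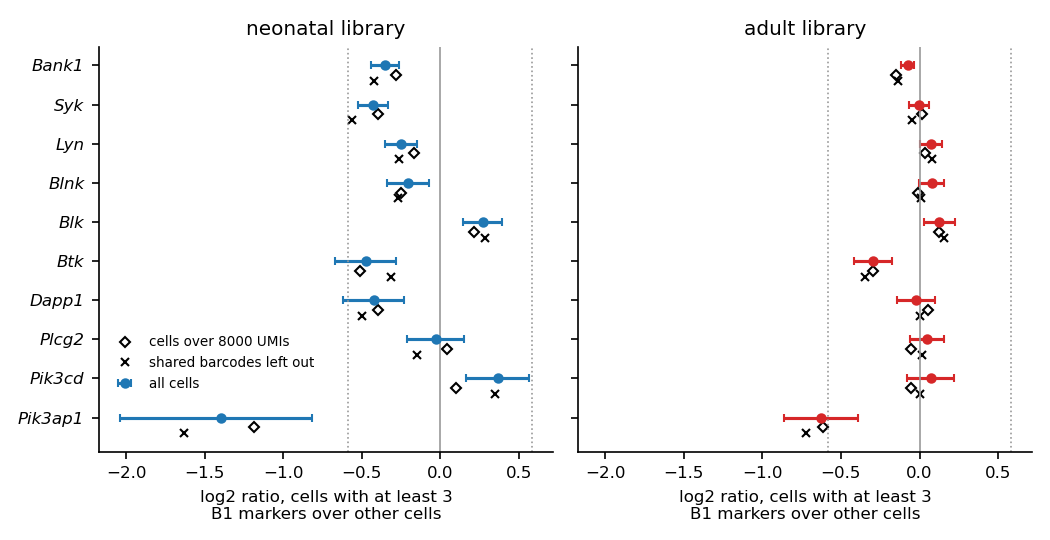
Log2 ratio of CPM in B1-marker cells over other cells, neonatal library on the left and adult library on the right, with 95% counting intervals (filled circles), in cells of over 8000 UMIs (diamonds) and without shared barcodes (crosses). Dotted lines mark 1.5-fold, and Pik3ap1 is the gene past it in both libraries.

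Past 1.5-fold, 1 of the 10 genes, Pik3ap1, was lower in B1-marker cells of the neonatal library and 0 were higher. Of the 8126 genes with enough UMIs, 11.7% were lower and 7.62% higher. In the adult library it was again Pik3ap1 alone that was lower and 0 were higher, while of 9210 genes 4.40% were lower and 5.47% higher. The median log2 ratio of the 10 was -0.30 in the neonatal library, where that of all genes was -0.11, and 0.02 in the adult library, where that of all genes was -0.05. Summed, the 10 genes made up 1605 CPM of neonatal B1-marker cells against 1896 CPM of the others, and 1582 against 1605 CPM in the adult library. Of the other pathway genes, 63 had a median of -0.25 with 4 higher and 11 lower in the neonatal library, and 64 had a median of -0.04 with 4 higher and 4 lower in the adult library.

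Both classes of cells were then limited to over 8000 UMIs, a choice made after the data were seen, which left 173 and 373 neonatal cells and 558 and 836 adult cells. Pik3ap1 was at -1.19 and -0.62, Btk at -0.51 and -0.30, and Syk at -0.40 and 0.01. In the neonatal library the log2 ratio of Pik3cd was 0.10 in place of 0.37, and that of Plcg2 0.045 in place of -0.027. Summed macrophage and neutrophil markers were higher in the neonatal class, and so was each macrophage marker but Adgre1. C1qb had 45 UMIs in 177 B1-marker cells and 0 in 1900 others. Lyz2 was at 76.0 against 66.4 CPM, Csf1r at 8.44 against 6.46 CPM and Cd14 at 3.38 against 2.65 CPM. C1qa was at 1.69 against 0 CPM and C1qc at 5.63 against 0.078 CPM. Adgre1 was lower, at 3.38 against 3.97 CPM, on 12 UMIs in B1-marker cells. The neutrophil marker S100a9 had 41.6 against 11.4 CPM. All 7 macrophage markers had UMIs in neonatal B1-marker cells, where they summed to 111 CPM, and 5 of 7 in the others, at 79.5 CPM. All 4 neutrophil markers had UMIs in both, at 63.3 and 17.1 CPM. In the adult library macrophage markers were at 8.74 CPM in B1-marker cells and 16.0 CPM in the others. T cell markers were higher in B1-marker cells of both libraries, at 19.1 against 4.83 CPM (neonatal) and 15.4 against 5.38 CPM (adult). Plasma cell markers were higher in the neonatal class, at 326 against 95.1 CPM, and lower in the adult class, at 109 against 218 CPM, and their part in the ratios was not tested. With droplets carrying other cell types' markers left out, 156 neonatal B1-marker cells remained and the log2 ratios were -1.69 for Pik3ap1, -0.43 for Syk, -0.41 for Btk and 0.29 for Blk.

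The gap between classes was wider in the neonatal library for most of the 10 genes. Of all genes, 11.7% were lower and 7.62% higher past 1.5-fold in neonatal B1-marker cells, against 4.40% and 5.47% in adult ones. The neonatal class held fewer UMIs than the adult one (3554311 against 12696060), and counting error spreads ratios more where counts are few. Whether the gap was wider over all genes beyond counting error was not tested. The adult ratio minus the neonatal one was 0.43 for Syk (0.31 to 0.54), 0.40 for Dapp1 (0.17 to 0.63), 0.32 for Lyn (0.20 to 0.44), 0.28 for Blnk (0.13 to 0.44), 0.28 for Bank1 (0.18 to 0.37) and 0.78 for Pik3ap1 (0.15 to 1.40). For Pik3cd it was -0.30 (-0.54 to -0.05). The intervals of Blk, Btk and Plcg2 held 0. Without the shared barcodes the differences were 0.52 for Syk, 0.50 for Dapp1, 0.34 for Lyn, 0.28 for Blnk and Bank1, 0.91 for Pik3ap1 and -0.34 for Pik3cd. Not every difference kept its sign under other settings. With cells thinned to 2000 UMIs and the class called again, the neonatal and adult ratios of Blnk were 0.15 and -0.50. Syk (-0.35 and -0.083) and Bank1 (-0.99 and -0.65) kept the sign of their difference there. With at most 5% mt- UMIs, Dapp1 was at 0.37 and -0.22, and Pik3cd at -0.62 and 0.81. The neonatal B1-marker cells held only 56000 UMIs after thinning and 302947 at that mt- limit. The signs in these settings are therefore not settled by the counts. With 1 library per age these differences were not tested over mice.

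**Figure D5:**
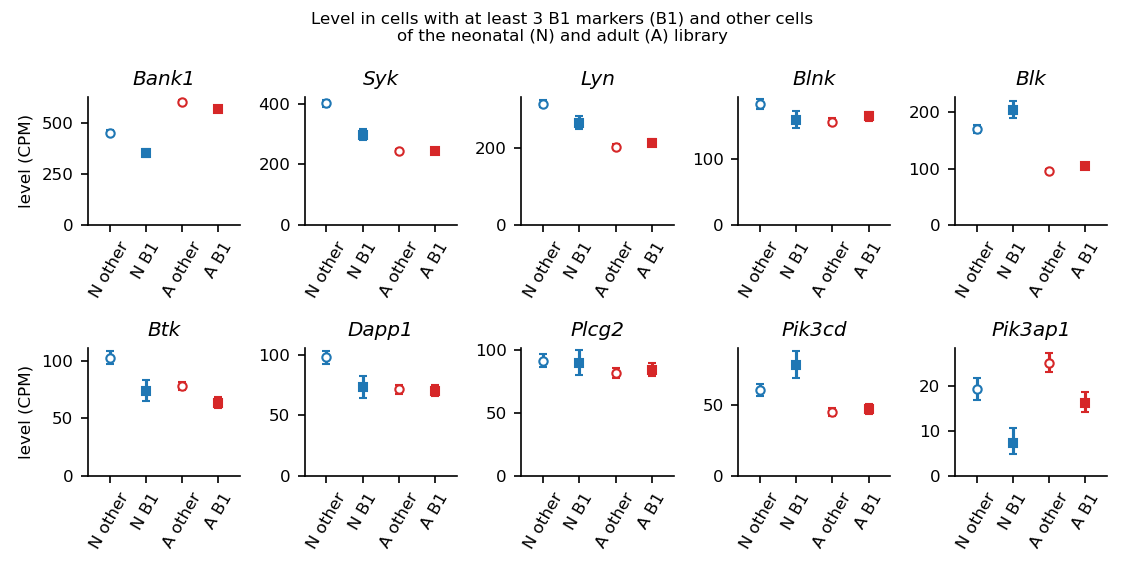
Level (CPM, axes from 0) of each gene in other cells (open circles) and B1-marker cells (filled squares) of the neonatal (blue, N) and adult (red, A) library, with exact 95% counting intervals. Syk was at 401 and 298 CPM in the neonatal classes and at 245 and 244 CPM in the adult ones, and Pik3ap1 is lower in the B1-marker cells at each age.

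Read the other way, the age ratios differed between the classes. Outside the B1-marker class, Blk (-0.83), Syk (-0.71) and Lyn (-0.63) were past 1.5-fold lower in adult cells, 3 of the 10, with 0 higher, where 10.9% of 9227 genes were lower and 6.11% higher. Among B1-marker cells 2 of the 10 were lower, Blk (log2 ratio -0.97, -1.10 to -0.84) and Pik3cd (-0.73, -0.94 to -0.52), and 2 were higher, Bank1 (0.69, 0.60 to 0.78) and Pik3ap1 (1.16, 0.56 to 1.80, on 26 neonatal UMIs). Of 8059 genes 9.85% were lower and 6.42% higher. Without the shared barcodes these ratios were -0.95 for Blk, -0.77 for Pik3cd, 0.69 for Bank1 and 1.28 for Pik3ap1, the last on 12 neonatal UMIs. With the shared barcodes kept, Lyn (-0.31) and Syk (-0.29) were nearer to 0 among B1-marker cells than outside the class. Blk was lower in both adult classes, with 95.2 and 104 CPM, than in the neonatal ones, with 169 and 204 CPM.

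Some other pathway genes were past 1.5-fold between the classes, while 48 of 63 in the neonatal and 56 of 64 in the adult library were not. Ptpn22, a phosphatase that dampens Src family kinases, had 102 against 33.8 CPM in neonatal (log2 ratio 1.59) and 107 against 48.9 CPM in adult B1-marker cells (1.12). Nfatc1, a calcium-responsive transcription factor, had ratios of 1.15 and 0.90. Orai1, the calcium release-activated channel, had 0.85 in the neonatal library but -0.035 (-0.18 to 0.11) in the adult one. Lower in B1-marker cells were Ighd (-1.39 and -1.01) and Rasgrp3 (-1.71 and -0.79). In the neonatal library Cr2 (-1.50), Foxo1, a transcription factor that the phosphoinositide 3-kinase arm inhibits (-1.03), and Pag1, an adaptor that recruits the kinase Csk (-0.94), were also lower. The adult ratios were -0.52 for Cr2, -0.19 for Foxo1 and -0.54 for Pag1, short of 1.5-fold. Cd72, an inhibitory receptor, was lower at both ages (-0.89 and -0.71), and Tec, a kinase related to Btk, was at -0.46 and -0.65. Without the shared barcodes the neonatal and adult ratios were 1.62 and 1.16 for Ptpn22, 1.20 and 0.92 for Nfatc1, -1.40 and -1.19 for Ighd, -2.07 and -0.97 for Rasgrp3 and -1.08 and -0.80 for Cd72.

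Transcript classes that did not use the 10 genes gave further contrasts. Cells with a Cr2 and a Fcer2a UMI, as follicular B cells have, numbered 223 neonatal and 1372 adult cells. Bank1 was higher in them than in the rest of the library at both ages, with log2 ratios of 0.25 (0.16 to 0.34) and 0.33 (0.29 to 0.37). Pik3cd was also above 0 at both ages, at 0.26 (0.026 to 0.49) and 0.23 (0.088 to 0.38). So were Btk (0.21 and 0.13) and Syk (0.11 and 0.083), with intervals clear of 0. Dapp1 (0.24) was clear of 0 in the neonatal library alone, and Blnk (0.21) and Pik3ap1 (0.26) in the adult one alone. Plcg2 had 0.12 (-0.09 to 0.31) at the neonatal and 0.38 (0.27 to 0.49) at the adult age. Cells with Vpreb3, a gene of immature B cells, and neither Cr2 nor Fcer2a numbered 749 and 267. In the neonatal library Lyn was at 373 against 280 CPM in these cells (log2 ratio 0.42, 0.33 to 0.50), Syk at 450 against 351 CPM (0.36) and Pik3ap1 at 21.5 against 14.8 CPM (0.54, 0.17 to 0.90). Blnk (0.26) and Plcg2 (0.26) were also higher there and Pik3cd lower (-0.26), with intervals clear of 0. The adult ratios were -0.084 for Lyn, 0.11 for Syk and -0.076 for Pik3ap1, each with an interval that held 0. Bank1 was at -0.38 (-0.49 to -0.27) in the adult Vpreb3 cells and at -0.00 (-0.077 to 0.074) in the neonatal ones. Btk was at -0.34 (-0.67 to -0.023) in the adult and at -0.018 in the neonatal Vpreb3 cells. These classes also differ in depth, with medians of 7163 and 9083 UMIs in the Cr2 and Fcer2a cells and 5275 and 4213 UMIs in the Vpreb3 cells, and the part of depth in these ratios was not tested.

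Cells with at least 3 of 6 cell cycle genes were few, 20 neonatal and 49 adult, and deep, with medians of 31060.5 and 26157 UMIs. Syk (-0.84 and -0.37), Lyn (-0.60 and -0.38) and Bank1 (-0.72 and -0.51) were lower in them than in other cells of both libraries, with intervals clear of 0. So were Btk (-0.88, -1.40 to -0.40) and Blnk (-0.33, -0.64 to -0.036) in the neonatal library, where all the remaining genes were also below 0. In the adult library Pik3ap1 was at -0.83 (-1.60 to -0.16, on 18 UMIs), and Blnk alone was above 0 (0.084). Ratios of all other genes are not given for this class, so whether the shift is particular to these genes was not tested. Blk was at -0.20 and -0.04 with intervals that held 0. Cells with at least 3 of 8 interferon-response genes numbered 16 and 269. In the adult library, Blnk (0.34, 0.25 to 0.44), Pik3ap1 (0.37, 0.10 to 0.62) and Lyn (0.19, 0.10 to 0.27) were higher in these cells and Blk lower (-0.27, -0.41 to -0.13). Plcg2 (0.22, 0.083 to 0.36) and Bank1 (0.12, 0.065 to 0.17) were higher as well. In the 16 neonatal cells Blk was instead higher (0.52, 0.071 to 0.93), and the other 9 genes had intervals that held 0, the widest that of Pik3ap1 (-0.50 to 2.10).

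Both sexes shared the neonatal library, so they were compared within 1 library. The sexes held by each of the 2 tubes of hearts are not given, so sex and tube may coincide. Btk, the X-linked gene of the 10, had 93.0 CPM in 323 cells with a Xist and no Y-linked UMI and 95.5 CPM in 1279 cells with a Y-linked and no Xist UMI (female minus male log2 -0.04, -0.26 to 0.18). Plcg2 (0.39, 0.18 to 0.59), Syk (0.22, 0.12 to 0.33), Lyn (0.17, 0.06 to 0.29) and Bank1 (0.10, 0.00 to 0.20) had higher levels in the cells with Xist, whose median depth was 5543 against 6269 UMIs, and the other 5 autosomal genes had intervals that held 0. The B1-marker class was not held alike between these sets (138 of the 1279 cells were in it), and ratios of all other genes by sex were not computed. Limited to cells with a Y-linked and no Xist UMI, which leaves 2819 adult cells, the age ratios were -0.81 for Blk, -0.55 for Syk, -0.49 for Lyn and 0.49 for Bank1, and Syk was then short of 1.5-fold.

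Patterns were compared by the distance of log2 CPM centred on each gene's own mean, so shape and not level was compared. The distance ran over the 4 groups of cells (each library with and without the B1-marker class). Among 4399 other genes with at least 20 CPM in each group, the patterns most like that of Blk were those of Kmt5a (distance 0.07), Colgalt1 (0.10) and Mcl1 (0.11). Those most like Bank1 were of Tmem243 (0.05), Cd22 (0.06) and Fam3c (0.06), and Cd22, an inhibitory receptor that Lyn phosphorylates, had 130 and 108 CPM in neonatal and 176 and 171 CPM in adult other and B1-marker cells. Pik3ap1 was too low for this comparison.

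A pair of the genes share their locus with a gene on the opposite strand that also had UMIs. Within Bank1, the antisense gene Gm31243 had 214 CPM in neonatal and 283 CPM in adult cells (log2 ratio 0.40, 0.35 to 0.46), and its ratios of B1-marker over other cells were -0.80 and -0.56, below those of Bank1. Within Lyn, Gm26857 had 13.7 and 16.5 CPM. Use of strand in counting is not given in the sources used here, so reads of Bank1 and Gm31243 may not be fully separated. No single cell held more than 1.83% of the UMIs of any of the 10 genes in its library.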

How the data were processed

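Single-cell RNA of flow-sorted heart B cells was measured in 1 Chromium 3′ library per age. The authors aligned the reads to mm10 and counted UMIs with Cell Ranger (version 3.0.2 per the file headers). The deposited values are raw UMI counts per gene and droplet, not normalized, with all barcodes listed. The annotation used for counting is not given in the sources used here, and 99.9% of the gene identifiers were found in GENCODE M21. The antibody rows held 3 and 2 UMIs and were not used.

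Droplets with at least 2000 gene UMIs, at most 10% mt- UMIs and a Cd79a UMI were kept, and UMIs were summed per group and divided by the group's total (CPM). Intervals are exact Poisson, exact conditional binomial for ratios, exact binomial for shares, and from the Poisson variance for differences of ratios, all at 95%. PCR duplicates were collapsed by UMI upstream. Thinning drew UMIs without replacement to 2000 or 1000 per cell. No doublet caller was run, and the 5% of cells with the most UMIs were left out as an alternative. The calculations were tested on simulated data. Promoter windows were searched on both strands. Intervals came from scipy 1.17.1, sums from numpy 2.4.6 and pandas 2.3.3 in Python 3.11.15, and figures from matplotlib 3.10.9.

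With 1 library per age there is no replicate and no test, and precision rests on counts of 274 to 20484 UMIs per gene and library. Genes were named by rule: all 10, then other pathway genes past 1.5-fold with at least 20 CPM in a group (at most 5 per direction and contrast), and the 3 nearest patterns of the 3 genes farthest from the median age ratio. The 10 genes, the lists and the B1 marker rule were chosen with earlier results of these data known. Alternatives covered the UMI and mt- limits, Cd79a, other cell types, scaling, thinning, shared barcodes, free RNA, sex and the B1 marker number. The limit to cells of over 8000 UMIs, and leaving out shared barcodes within classes and for named pathway genes, were added after the data were seen. Some genes that the naming rule or the marker lists hold are not reported here.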

Additional observations from a re-analysis of the deposited data

Results flagged for a closer look

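Lyn, Blnk and Plcg2 had ratios of B1-marker over other cells that were negative in the neonatal library and positive in the adult one. The log2 ratios were -0.25 and 0.073 for Lyn, -0.20 and 0.077 for Blnk and -0.027 and 0.048 for Plcg2. With 1 library per age the difference between the ages was not tested. By counting error alone, the interval of the difference held 0 for Plcg2 (-0.13 to 0.28). The neonatal values of Plcg2 and the adult values of Blnk and Plcg2 had intervals that held 0, so their signs are not settled by the counts. Among cells of over 8000 UMIs the adult ratio of Blnk was -0.011 and that of Plcg2 -0.056, against 0.045 for Plcg2 in the neonatal library, while Lyn was at -0.17 in neonatal and 0.035 in adult cells.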

How the results depend on the processing

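Of 558 ratios of the 10 genes recomputed under 16 alternatives for age and 20 for the B1-marker class, 518 kept their direction, and no ratio that was past 1.5-fold as reported changed sign. Pik3cd in the neonatal class turned from 0.37 to -0.62 with at most 5% mt- UMIs, where that class held 12 cells and 302947 UMIs. With age, Blk stayed past 1.5-fold in 15 of 16 alternatives and Syk in 12, while Lyn stayed short of it in 11. Pik3ap1 had no UMI in the neonatal class of 28 cells called after thinning and has no value there. All 20 comparisons of shares kept their direction.

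The median ratio or the number of genes past 1.5-fold moved under these settings. With at most 5% mt- UMIs, 60 neonatal and 156 adult cells remained, and the age median was -0.27 with 1 gene higher and 3 lower. At this limit the neonatal class median was -0.43 with 3 lower, and the adult class had 1 higher and 0 lower. There Blk had an age ratio of only -0.05. With cells thinned and the class called again (28 and 61 cells), 3 genes were lower in the neonatal class and 3 in the adult class, whose median was -0.47. With only the class called after thinning, 2 were lower in the neonatal class and the adult median was -0.27. Median-of-ratios scaling gave an age median of -0.26 with 1 higher and 1 lower, a neonatal class median of -0.19 and 0 lower in the adult class. At least 2 markers also left 0 lower in the adult class. Without the deepest 5% of cells the adult class median was -0.090, and in cells of over 8000 UMIs without shared barcodes it was -0.085, an alternative added after the data were seen. In male cells 1 gene was lower with age. Among B1-marker cells the age median was -0.15 with 2 higher. Some of these settings left fewer cells and others kept all of them, and the cause of the moves was not tested. Where few B1-marker cells were left, UMIs of single genes are not given. Genes counted as past 1.5-fold there may fall short of the UMI minimum. No paired analysis was possible because each age has 1 library.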
